A study of Sus scrofa with 11 samples.

Results

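The carotid artery of carrier-only pigs is described here in 5 poly-A RNA-seq samples, chosen as all samples that the labels place in the SWNT group, out of 11 listed in the series (10 of them with a column of counts). These pigs (Sus scrofa) ate a high-fat, high-calorie Western diet for 12 weeks and were assigned at random to weekly intravenous infusions of 400 nM single-walled carbon nanotubes (SWNT), given under general anaesthesia. The animals are the vehicle group of a study whose other pigs received nanotubes that carried a blocker of SHP-1, a phosphatase. Every level below therefore belongs to arteries of pigs that had both the diet and the nanotubes. The labels name no sex, breed, age, litter or batch, no lesion was measured here, and animals without the diet or without nanotubes are not analysed here. Each sample carries its own animal number, and replicates are numbered 1 to 5 in accession order, which has no meaning of its own.

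An artery wall has a media of smooth muscle cells layered with elastic fibres, an inner lining of endothelium, and an outer adventitia of fibroblasts, collagen, small vessels, nerves and resident macrophages that grades into fat. Contractile smooth muscle carries alpha-actin, smooth muscle myosin heavy chain, transgelin and calponin, and also makes much of the elastin and collagen around it. Under a lipid-rich diet, macrophages take up lipid and dying cells in the intima, and CD47 on a cell signals through SIRPA and SHP-1 in the macrophage to hold back its engulfment. In whole tissue, fewer cells of a type and less RNA per cell cannot be told apart.

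Total counts were 42242812, 34424082, 47718854, 36116326 and 32931527 in replicates 1 to 5, and CPM (counts per 1000000) is relative to these totals. TMM factors, which rescale the totals so that most genes match between samples and are used for the SDs below, were 1.011, 0.974, 0.918, 1.1 and 1.005. TPM (transcripts per 1000000) was computed from the counts and the summed exon length of each gene, and genes are set against each other by TPM, except where an order by CPM is named as such. Of 35670 genes in the table, 12728 reached 1 CPM in all 5 samples, and these held 99.54% of the counts. Another 12915 genes had no count in any of the 5. All 7 defining markers checked (ACTA2, MYH11, TAGLN, CNN1, PECAM1, DCN and CD163) were present in every sample, at the levels given below.

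Replicates 3 and 4 stood apart from the rest in different ways. Replicate 3 had the most counts but the fewest genes with any count, 19942, 18928, 17259, 19690 and 18889 genes in replicates 1 to 5. The shortfall lay at the low end: genes with 1 to 20 counts numbered 4681, 4510, 2121, 4826 and 4306. Among genes averaging 1 to 2 CPM in the other 4 samples, the share with no count was 0.26, 1.45, 6.68, 0.43 and 0.79%. TREM2, a lipid-sensing receptor of macrophages, had 68, 36, 0, 94 and 80 counts, and STARD4, a sterol carrier, had 70, 38, 0, 96 and 70. An absence in replicate 3 alone is therefore not read below as an absence of the transcript. The cause of this pattern was not tested.

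**Figure D1:**
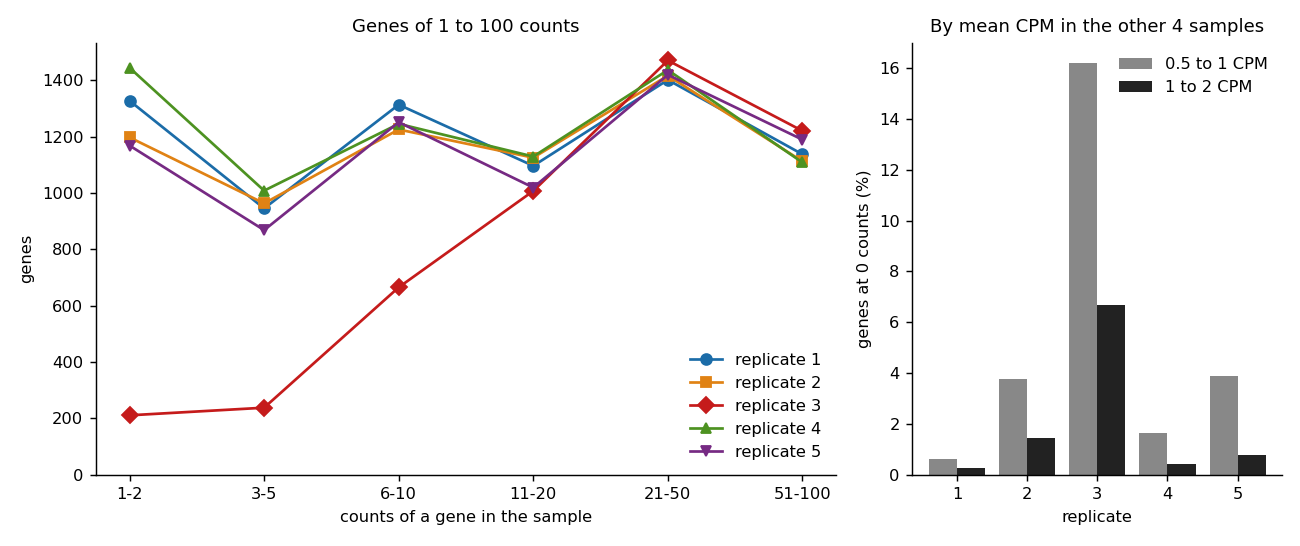
Left, number of genes (vertical axis) by their count in a sample (horizontal axis), 1 line per sample. Right, percentage of genes at 0 counts in each sample among genes averaging 0.5 to 1 or 1 to 2 CPM in the other 4. Replicate 3 has 211 genes at 1 to 2 counts where the others have 1168 to 1444, and 1007 at 11 to 20 counts where the others have 1019 to 1129.

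Replicate 4 had no count for 6 Y-chromosome genes. EIF1AY, a translation factor encoded on the Y, had 1269, 1003, 927, 0 and 972 counts, and KDM5D, a histone demethylase encoded there, had 917, 821, 922, 0 and 693. The 6 genes summed to 334.6, 336.7, 318.7, 0 and 364.4 CPM. At the 95% level a count of 0 allows up to 3 counts per gene if counts are independent. CD99, which the table also places on the Y, was present in all 5 (557, 501, 592, 469 and 457 CPM). It lies at 5946585 to 5982945, apart from the 6 genes, which start at 9153467 or later. Its presence in replicate 4 is therefore not read as a sign that those genes are carried there. The labels give no sex, and no groups are formed from these values.

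Replicate 3 also held the largest share of mitochondrially encoded reads, at 1.73, 1.59, 2.97, 1.42 and 1.16 percent of counts in replicates 1 to 5 (95% exact Clopper-Pearson interval in replicate 3 of 2.965 to 2.975%, which covers counting error only). It is also the only one of the 5 whose animal number lies outside a common range, and the labels do not say what the numbers mean. Its root-mean-square log2 difference from the other samples averaged 0.71, against 0.51 to 0.57 for each of the others. No pair looked like 1 library under 2 names: replicates 2 and 5 were the closest pair, with a median chi-square per gene of 6.62 where counting noise gives 0.45.

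Structural genes of the wall held the highest ranks by CPM. COL3A1 and COL1A1, which encode fibrillar collagens of types III and I, and FLNA, the actin cross-linker filamin A, had the highest CPM. COL3A1 had 29939, 22909, 13277, 24979 and 24673 CPM in replicates 1 to 5, with a mean of 23156 ± 6109 (SD, n = 5). COL1A1 had 34571, 18527, 16821, 15619 and 15550 CPM, and FLNA had 17904, 25186, 27337, 13003 and 22897 CPM. Replicate 1 was the highest for both collagens and stood well apart for COL1A1, and replicate 3 was the lowest for COL3A1. Together these 3 genes took 6.46 ± 1.11% of all counts, and the 20 highest genes took 19.5 ± 1.32%. Of the 25 genes highest by mean, 20 were in the top 25 of every sample.

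Per unit of length the order changed, and small secreted and contractile proteins came first. SPARC, a collagen-binding matrix glycoprotein, had 19581, 14986, 11149, 15867 and 14570 TPM and ranked first with a mean of 15231 ± 3020. ACTA2, smooth muscle alpha-actin, had 13029, 17213, 16215, 13003 and 15879 TPM. ELN, tropoelastin, had 17045, 18039, 10227, 12847 and 15283 TPM. Neighbouring ranks here differed by less than the spread between samples, since the means of SPARC, ACTA2 and ELN (15231 ± 3020, 15068 ± 1936 and 14688 ± 3179 TPM) lay within 1 SD of each other. Next by mean TPM came TAGLN, COL3A1, the regulatory light chain MYL9, the elongation factor EEF1A1 and the mitochondrial genes ATP6 and COX3.

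Length moved some genes far. FLNA, with 9380 bases of exon, was rank 2 by CPM and rank 18 by TPM. SYNPO2, an actin-bundling protein of smooth muscle, went from rank 95 to 585, the largest shift down among the 100 genes highest by CPM, followed by VCL, COL6A3, TNC and MYH9. In the other direction ssc-mir-10390, a microRNA gene of 95 bases (chromosome 9, 4700784 to 4700878, Sscrofa11.1), was rank 1311 by CPM and rank 33 by TPM. It had 7330, 5044, 13, 4598 and 5022 counts in replicates 1 to 5, so replicate 3 was almost without it. The SD of its log2 CPM was 3.90 over 5 samples and 0.24 without replicate 3. The rank of ssc-mir-10390 by TPM rests on division by only 95 bases. These libraries were captured by poly-A, so its reads are not taken as a measure of the microRNA. Whether they come from a longer transcript over the locus was not tested. The remaining 4 genes with the lowest CPM rank among the top 100 by TPM were ND4L, ADIRF, RPS28 and ND3, all short.

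**Figure D2:**
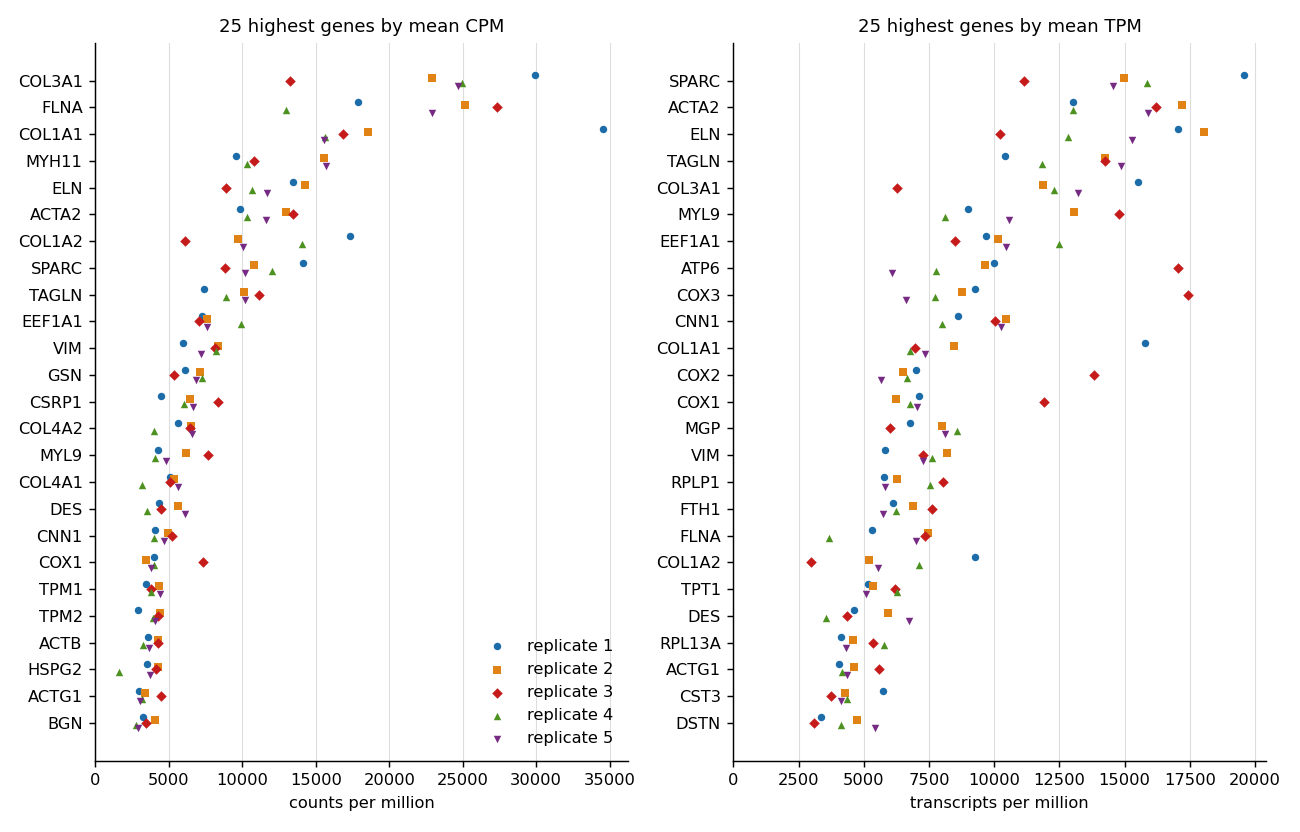
CPM of the 25 genes highest by mean CPM (left) and TPM of the 25 highest by mean TPM (right), 1 point per sample. Replicate 1 lies highest for COL1A1, COL1A2 and COL3A1, and replicate 3 lies highest for COX1, COX2, COX3 and ATP6.

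Contractile smooth muscle had the highest summed level of 19 marker lists. Its 20 members, all at 1 CPM or more in every sample, summed to 62312, 83628, 78357, 61583 and 81977 TPM, with a mean of 73572 ± 10784 and a highest-to-lowest ratio of 1.36. ACTA2 (chromosome 14, 100867733 to 100886713) had 9834, 12996, 13461, 10347 and 11601 CPM and a mean of 11648 ± 1588. MYH11, smooth muscle myosin heavy chain (chromosome 3, 7002735 to 7143095), had 9555, 15588, 10796, 10307 and 15680 CPM. Replicates 2 and 5 were high for MYH11 and the other 3 lay close together. TAGLN, the actin-binding transgelin (chromosome 9, 44560785 to 44567385), had 7386, 10126, 11149, 8866 and 10212 CPM, and CNN1, calponin, which restrains actomyosin (chromosome 2, 70183364 to 70190752), had 4069, 4941, 5221, 3997 and 4699 CPM. Neither varied by more than 1.51-fold, and replicates 1 and 4 were the 2 lowest for both.

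Other members varied more. DES, desmin, had 4358, 5598, 4494, 3516 and 6126 CPM. SYNM, synemin, another intermediate filament protein, had 12.1, 20.1, 2.1, 26.3 and 34.6 CPM, the widest spread in the list, with an SD of log2 CPM of 1.53 that was 0.63 without replicate 3. MYOCD, myocardin, which drives contractile gene expression with SRF, had 26.3, 44.8, 17.2, 24.9 and 60.4 CPM. Replicate 5 was highest and replicate 3 lowest for SYNM and MYOCD. Reads of near-identical actins (ACTA2, ACTG2, ACTB, ACTG1) can be shared between genes by the counting, so their levels relative to each other are uncertain.

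Pericyte genes, many also made by smooth muscle of small arteries, summed to 1935, 2474, 1497, 2296 and 2870 TPM. RGS5, a regulator of G-protein signalling, led with 1199, 1672, 731, 1898 and 2073 CPM, lowest in replicate 3. HIGD1B, another of the listed pericyte genes, stayed under 1 CPM in every sample.

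Elastin took most of the elastic fibre list, whose 14 members summed to 23117, 24542, 15082, 17569 and 20770 TPM. ELN itself had 13448, 14237, 8874, 10687 and 11671 CPM, highest in replicates 1 and 2 and lowest in replicate 3. MFAP4, a microfibril-associated protein, had 2443, 2991, 2532, 2056 and 2399 CPM, and FBN1, fibrillin-1 of the microfibril core, had 659, 433, 194, 502 and 486 CPM. Replicate 3 was lowest for FBN1 too, and the SD of its log2 CPM was 0.60 with and 0.26 without replicate 3. The cross-linking enzymes LOX and LOXL1 had means of 404 ± 85.7 and 238 ± 23.1 CPM, and LOXL1 was among the steadiest members (SD of log2 CPM 0.09).

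Adventitial fibroblast markers were second in abundance and less even. The 18 members summed to 57072, 37032, 24246, 40237 and 36880 TPM, a 2.35-fold range that was 1.55-fold without replicate 3. Replicate 1 was the highest sample for 16 of the 18 members on TMM-scaled log2 values, and for 14 with plain totals. Over the 9412 genes with a mean of 10 CPM or more, replicates 1 to 5 were highest for 13.7, 13.1, 34.1, 20.3 and 18.8% on the TMM scale, the shares against which such counts of members are read. The list includes COL3A1, COL1A1 and COL1A2, with mean TPM of 11824, 9059 and 6017, where the list has a mean of 39093 TPM. Smooth muscle also makes these collagens, which give most of the sum. The level and rank of the list are therefore not specific to fibroblasts. DCN, decorin, a small proteoglycan of collagen fibrils (chromosome 5, 91682658 to 91714235), had 2193, 1473, 640.1, 1960 and 1331 CPM. LUM, lumican, of the same family, had 1001, 740.0, 214, 961 and 743 CPM. Both were lowest in replicate 3, and the SD of log2 CPM of LUM was 0.84 with and 0.20 without it. PI16, a marker of a progenitor-like adventitial fibroblast, had 1090, 922, 413, 1156 and 670.1 CPM. SFRP2, a secreted Wnt modulator, varied most of the members (6.8 to 80.4 CPM, SD of log2 CPM 1.29) and was highest in replicate 4.

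Collagen chains as a whole summed to 53414, 37777, 27760, 34797 and 38969 TPM. The chains gave several orders of samples. Of the basement membrane collagens, COL4A1 had 5076, 5378, 5082, 3188 and 5646 CPM and COL4A2 had 5600, 6490, 6420, 4006 and 6577 CPM, both lowest in replicate 4 and close together in the other samples. The fibrillar chain COL5A1 was also lowest in replicate 4 (3331, 2520, 2517, 1566 and 2428 CPM), whereas COL1A2 was lowest in replicate 3 (17338, 9705, 6126, 14034 and 10030 CPM). HSPG2, perlecan, the large heparan sulphate proteoglycan of basement membrane, was also lowest in replicate 4 (3503, 4230, 4158, 1592 and 3752 CPM). MGP, which inhibits calcification, was even across samples (2648, 3133, 2589, 3543 and 3081 CPM), as was BGN, biglycan (3242, 4063, 3414, 2749 and 2917 CPM). TNC, tenascin C, a glycoprotein of remodelling matrix, ranged from 484 CPM in replicate 4 to 1666 CPM in replicate 5.

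**Figure D3:**
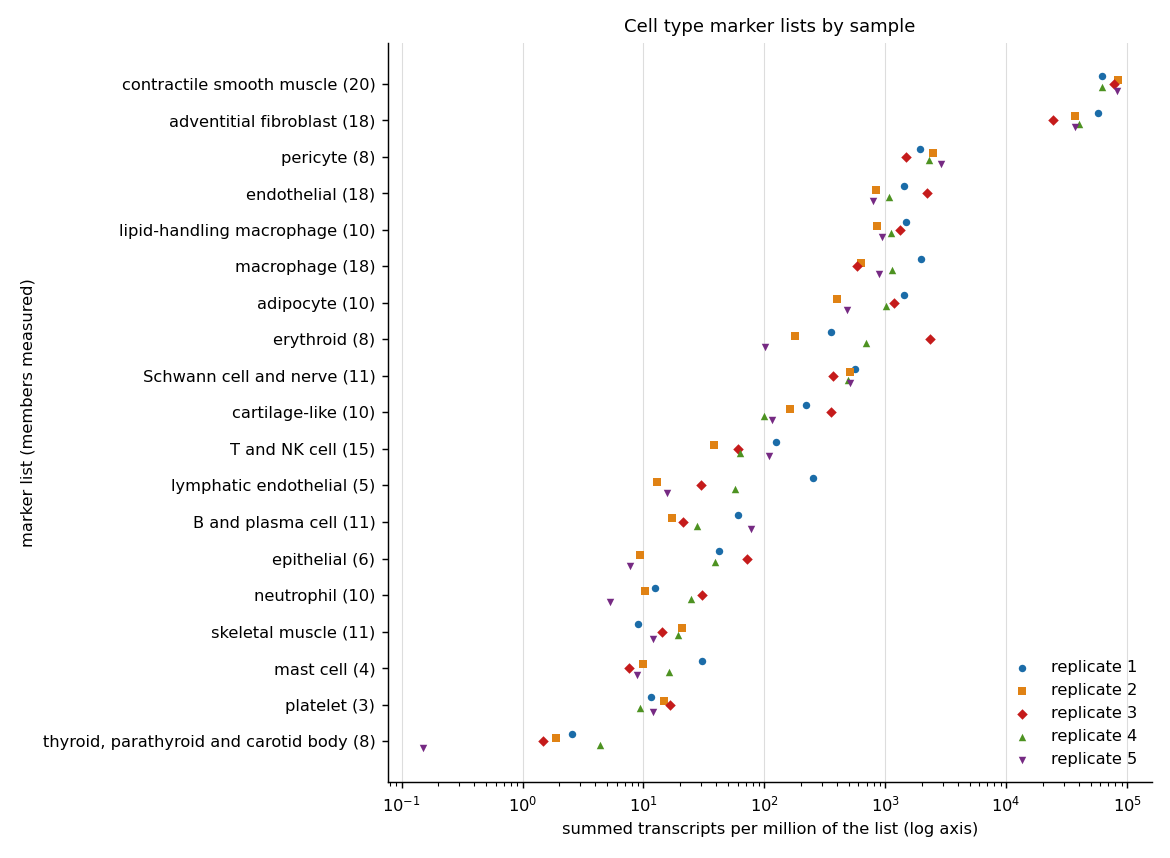
Summed TPM (log axis) of 19 cell type marker lists, with the number of measured members in brackets, 1 point per sample. Contractile and fibroblast lists lie at 24246 TPM or more in all 5 samples, and endothelial, macrophage and adipocyte lists lie between 399 and 2197 TPM.

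Genes that set vascular tone were expressed in every sample, with an even sum but uneven members. The 23 vasoactive receptors and effectors summed to 925, 951, 1026, 953 and 1002 TPM, a 1.11-fold range beside 1.1-fold for the widely used reference genes. Without the most abundant member of each list the ranges were 1.38-fold and 1.19-fold, and the median SD of log2 CPM of the members was 0.313 and 0.243. EDNRA, the endothelin receptor of smooth muscle, had 39.6, 45.2, 17.2, 58.1 and 56.4 CPM, lowest in replicate 3. AGTR1, the angiotensin II receptor, had 31.7, 24.3, 17.9, 30 and 23.4 CPM, and PRKG1, the cGMP-dependent kinase that relaxes the muscle, had 90.5, 126, 78.5, 142 and 113 CPM. Of the 3 alpha-1 adrenergic receptors, ADRA1D was the highest by TPM (33.6 ± 6.3) and ADRA1A the lowest (0.0876 ± 0.0654). Among ion channels, KCNMA1, the large calcium-activated potassium channel, had 96, 127, 97.2, 128 and 158 CPM, and CACNA1C, the L-type calcium channel, had 80, 105, 88.6, 61.6 and 72.8 CPM.

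Transcription factors of the wall included HEYL, a Notch target, at 368, 505, 530.3, 413 and 592 CPM, and SRF, the serum response factor, at 142, 168, 135, 132 and 183 CPM. FOXC1, a forkhead factor of neural crest and vessel development, was highest in replicate 3, at 71.5, 159, 510.4, 59 and 71.5 CPM, as was FOXC2 (77.8, 143, 314, 61.6 and 82.4 CPM). The 39 HOX rows of the table, whose genes mark position along the body axis, were read mainly from the anterior paralogue groups: groups 1 to 4 had 7 of 13 rows at 1 CPM in all samples, groups 5 to 8 had 2 of 10, and groups 9 to 13 had 0 of 16. HOXA3, of the group known for the third pharyngeal arch that forms the carotid, had 44.2, 66.8, 88.4, 37.9 and 42.7 CPM. Per length HOXB2 (52.1 ± 11.2 TPM) and HOXA3 (51.2 ± 17.5 TPM) were the highest of the family and did not differ beyond their spread. Groups 1 to 4 summed to 174 to 234 TPM and groups 9 to 13 to 0.65 to 5.83 TPM, and 11 of those 16 rows had no count in any sample.

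Endothelial genes were less abundant and were mostly highest in replicate 3. The 18 markers summed to 1429, 833, 2197, 1082 and 788 TPM, and replicate 3 was highest for 16 of the 18 under each scaling tried, beside 34.1% of all genes on the TMM scale. PECAM1, the junctional adhesion molecule CD31 (chromosome 12, 14649044 to 14723293), had 329, 153, 474, 296 and 139 CPM. VWF, von Willebrand factor, had 229, 65, 349, 111 and 87.1 CPM, and NOS3, which makes nitric oxide, had 93.2, 63, 298, 51.4 and 31.9 CPM. In all 3 replicate 3 was highest and replicate 1 second. ERG, an endothelial transcription factor, was even (49.6, 45.1, 44.3, 42.6 and 39.8 CPM), the smallest spread in the list. ROBO4, a guidance receptor of endothelium, spread the most (SD of log2 CPM 1.44). The list held 0.127% of all TPM, which is a share of these 18 genes and not of endothelial RNA. Without replicate 3 its range was 1.81-fold.

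Lymphatic endothelial genes were concentrated in replicate 1. CCL21, a chemokine of lymphatic vessels and lymphoid stroma, had 137, 0.93, 9.05, 25.6 and 2.85 CPM, and LYVE1, a hyaluronan receptor of lymphatics and some macrophages, had 41.6, 3.95, 8.59, 14.2 and 4.13 CPM. FLT4, the VEGF-C receptor, was also highest there (31.3, 5.69, 5.64, 7.7 and 5.37 CPM), whereas PROX1, the lymphatic master regulator, had no count in 3 of the 5 samples. 

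Macrophage genes followed the same sample. The 18 markers summed to 1972, 635, 580.2, 1145 and 895 TPM, and replicate 1 was highest for all 17 members at a mean of 1 CPM or more, under each of the scalings tried, beside 13.7% of all genes on the TMM scale. CD163, the scavenger receptor for haemoglobin on tissue-resident macrophages (chromosome 5, 63300231 to 63334498), had 79, 19.1, 21.4, 31.1 and 22.1 CPM. C1QC, a chain of complement C1q made by resident macrophages, was the most abundant member by TPM and had 276, 77.5, 78, 169 and 115 CPM. CSF1R, the receptor that macrophages need to survive, had 236, 99.3, 105, 122 and 122 CPM. Replicates 2 and 3 were the 2 lowest for these 3 genes, replicate 1 the highest. MRC1, the mannose receptor, ranged more widely (45.9, 10.6, 5.83, 23.1 and 16.9 CPM), and ADGRE1, the F4/80 antigen, had the largest SD of log2 CPM in the list (1.29) at only 1.57 ± 1.81 CPM. MARCO, a scavenger receptor of other macrophage populations, stayed under 1 CPM. The range of the list was 3.4-fold, and 1.97-fold without replicate 1.

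Lipid-handling macrophage genes gave a different order of samples, though replicate 1 was again highest in sum (1480, 851, 1333.5, 1117 and 946 TPM). Replicate 1 was highest for 5 of the 10 members and replicate 3 for 3, beside 13.7 and 34.1% of all genes on the TMM scale. APOE, the lipid carrier, had 364, 154, 309, 296 and 178 CPM, and CTSD, cathepsin D, had 354, 323, 425, 289.5 and 319 CPM. FABP5, a fatty acid carrier, was highest in replicate 3 (81.2, 20.9, 166, 63.1 and 22.3 CPM). SPP1, osteopontin, and GPNMB had means of 14.8 ± 4.98 and 25.1 ± 12.4 CPM, and TREM2 stayed at or under 2.6 CPM. Several of these genes are also made by adipocytes and smooth muscle. Genes of LXR and cholesterol efflux (ABCA1 23.8 ± 6.79 CPM, ABCG1 10.6 ± 3.17 CPM) and of cholesterol synthesis (HMGCS1 47.2 ± 14.1 CPM) were present at low to moderate levels.

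The axis that the study targets was expressed in every sample. CD47, the signal against engulfment (chromosome 13, 151429288 to 151488544), had 161, 171, 136, 186 and 189 CPM and 56.7 ± 9.05 TPM. SIRPA, its receptor on macrophages and smooth muscle, named here by position (chromosome 17, 33566271 to 33611603), had 73.1, 38.5, 35.8, 40.6 and 39 CPM. PTPN6, which encodes SHP-1 (chromosome 5, 63762112 to 63808350), had 29.7, 12.9, 12.8, 20.4 and 19.3 CPM. CD47 varied little (1.39-fold), whereas SIRPA and PTPN6 were highest in replicate 1, where the macrophage list was highest. Whether macrophage content accounts for that was not tested.

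Lymphocyte genes were scarce and highest in replicates 1 and 5. T and NK cell markers summed to 124, 38.4, 60, 63.1 and 109 TPM, and B and plasma cell markers to 60.3, 17.4, 21.3, 27.5 and 77.3 TPM. The T and NK cell range of 3.24-fold was 2.07-fold without replicate 2, the lowest sample. CD3E, of the T cell receptor complex, had 8.95, 1.16, 7.63, 5.37 and 10.2 CPM, and MZB1, a plasma cell chaperone, had 5.35, 0.0871, 1.11, 1.33 and 11 CPM. A list of 20 antigen receptor segments, taken from the RefSeq gene type after their values had been seen, summed to 605, 37.9, 31.8, 49.6 and 3689 TPM. Only 1 of the 20 had a mean of 10 CPM or more and 5 had 1 CPM or more, while 6 had no count. Of those 5, replicate 1 was highest for 1, replicate 3 for 2 and replicate 5 for 2. Replicates 1 and 5 were also highest for LYZ, lysozyme (50.9, 4.1, 4.95, 6.04 and 58.2 CPM), and CXCL9, an interferon-gamma-induced chemokine (58.1, 2.09, 10.4, 5.48 and 91.6 CPM). Interferon-stimulated genes in general were not confined to these samples: their list ranged only 1.45-fold, and IFI6, its highest member by TPM, had 170.0, 161, 266, 291 and 288 CPM.

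Fat cell genes split the samples. ADIPOQ, adiponectin, had 189, 1.98, 88.7, 91.6 and 3.61 CPM, high in replicates 1, 3 and 4 and near absent in replicates 2 and 5. PLIN1, the coat protein of large lipid droplets, had 70.6, 2.09, 40.2, 27.7 and 2.7 CPM, and AGT, angiotensinogen, which fat also secretes, had 42.2, 1.51, 32.8, 12.4 and 1.37 CPM. CA3, carbonic anhydrase 3, an enzyme of fat and muscle, had 41, 0.93, 21.3, 39.5 and 0.881 CPM, high in the same 3 samples. These differences did not rest on replicate 3: the SD of log2 CPM of ADIPOQ was 2.99 with it and 3.23 without it. CFD, adipsin, the most abundant of the adipocyte list, varied less (305, 111, 284, 268 and 137 CPM).

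Of the erythroid genes HBB, beta-globin, was the highest by TPM and had 141, 69.9, 990.5, 269 and 35.8 CPM, most in replicate 3. ALAS2, which starts haem synthesis in erythroid cells, had 25.5, 13.5, 220.4, 85.7 and 12.1 CPM, and HBM, mu-globin, had 4.19, 3.14, 41.3, 8.86 and 0.668 CPM. The 3 genes gave one order of samples, from replicate 3 through 4, 1 and 2 to replicate 5. The erythroid list summed to 354, 178, 2333, 697 and 101 TPM, so it spread 23.2-fold, and 6.93-fold without replicate 3. That sum covers 8 of 10 listed genes, since HBA1 and HBA2 had no row in the table. Globin reads can be shared among near-identical globin genes. Neutrophil, mast cell and platelet lists stayed low in every sample (summed means of 16.8 ± 10.6, 14.7 ± 9.39 and 12.9 ± 2.94 TPM). The mast cell sum covers 4 of 6 listed genes, without TPSAB1 and TPSB2, which had no row. The platelet sum covers 3 of 5, without PF4 and GP1BA. Both low sums therefore describe only the genes with a row.

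Markers of muscle and glands near the carotid were low. The 11 skeletal muscle markers with a row in the table (of 14 listed) summed to 15.1 ± 4.95 TPM, of which CKM, muscle creatine kinase, gave most. The 8 thyroid, parathyroid and carotid body markers with a row (of 9 listed) summed to 2.09 ± 1.55 TPM, and TH, tyrosine hydroxylase of the carotid body's glomus cells, had no count in any sample. Schwann cell genes were present: the 11 of 12 listed genes with a row summed to 563, 509, 370.1, 489 and 515 TPM. The range was 1.52-fold, lowest in replicate 3. PMP22, a myelin protein (227, 228, 154, 233 and 222 CPM), led the list, and SOX10, the Schwann cell master regulator, had 43, 47, 27.2, 34.4 and 39 CPM. Epithelial markers summed to 42.1, 9.39, 72.2, 39.2 and 7.81 TPM, highest in replicate 3 and lowest in replicates 2 and 5, with KRT8, a keratin of simple epithelia, at 16.2, 2.09, 18.4, 17.9 and 2.95 CPM. KRT5, KLF1, CPA3, MYH4 and SRY also had no count in any of the 5.

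Spread among the 5 animals was measured as the SD of TMM-scaled log2 CPM, over the 9412 genes with a mean of 10 CPM or more. The median SD was 0.248, and 172 genes (1.83%) reached 1, which corresponds to a typical 2-fold departure. Independent counts would give a median SD of 0.0391. Of the genes with 1 to 20 counts, 78.9, 79.5, 83.7, 78.6 and 77.7% had an even count in replicates 1 to 5. Counts that come in pairs are not independent, so this value and the chi-square from counting noise are too small and the interval on mitochondrial reads too narrow. The bound given for a count of 0 in the Y genes is too small for the same reason. Without replicate 3 the median was 0.189 and 75 genes reached 1, 66 of them shared with the 172. Of the 172, replicate 3 was highest for 103 and lowest for 30, and replicate 5 was lowest for 69. Over all 9412 genes, replicate 3 was highest for 34.1% and lowest for 33.1%, and replicate 5 was lowest for 16.3%. The biological coefficient of variation that edgeR estimated over 14298 genes was 0.312 (0.246 without replicate 3).

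**Figure D4:**
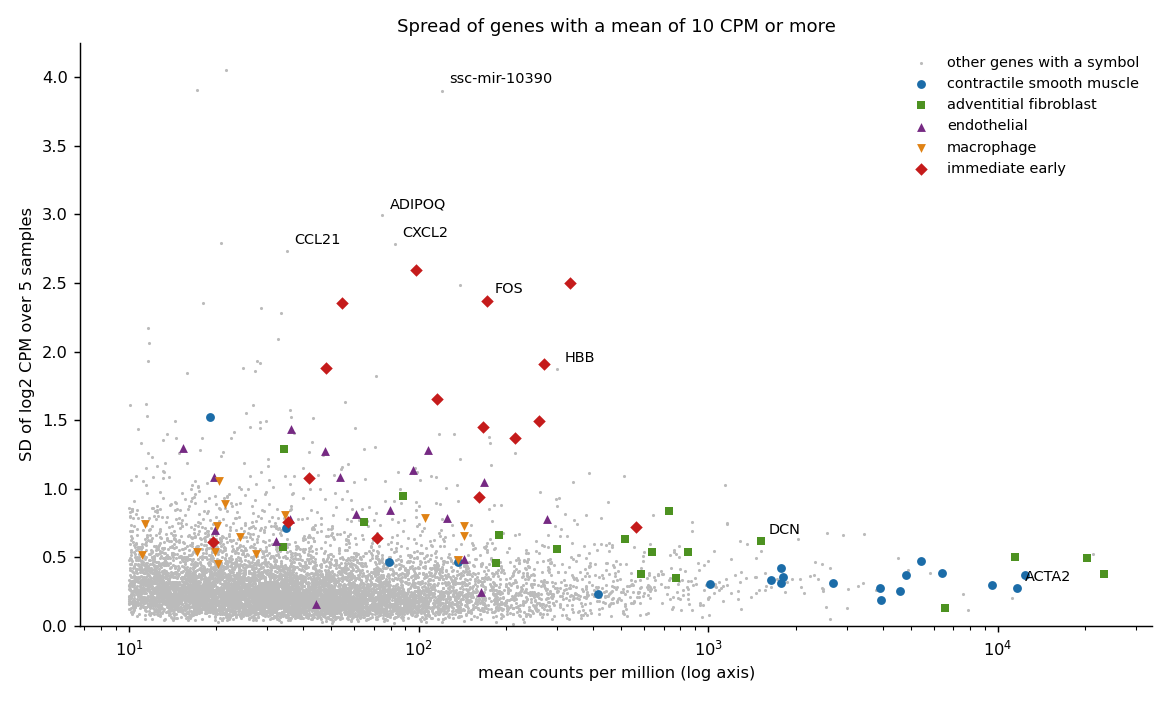
SD of log2 CPM over the 5 samples (vertical axis) against mean CPM (log axis) for genes with a symbol and a mean of 10 CPM or more, with 5 lists marked. Immediate early genes reach SDs of 2.59. Contractile genes of 1000 CPM or more reach at most 0.48, while SYNM of that list, at a lower CPM, lies higher. At a mean of 10 CPM or more, 11 of 16 immediate early and 1 of 20 contractile genes have an SD of 1 or more, beside 1.83% of all genes.

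The 25 named genes of widest spread included 6 of the immediate early list, ADIPOQ and PLIN1 of the adipocyte list, and 2 Y genes. AGT and CA3, which are not in the adipocyte list, were also among them. Of members with a mean of 10 CPM or more, 11 of 16 immediate early and 4 of 7 adipocyte genes had an SD of 1 or more. Over all genes at that level the share was 1.83%. Immediate early genes are switched on within minutes of a stimulus, and their list summed to 1317, 2320, 7077, 3338 and 1053 TPM. NR4A1, a nuclear receptor of this class, had 30.4, 220.2, 1328, 70.4 and 20.2 CPM, FOS had 15.2, 144, 532, 159 and 12.7 CPM and FOSB had 4.12, 31, 204, 27.6 and 4.68 CPM. Replicate 3 was highest in each of them, and was highest for 16 of 18 members (15 with plain totals, where JUN is highest in replicate 4), beside 34.1% of all genes on the TMM scale. ATF3, a stress-responsive factor, was instead highest in replicate 4, with 10.5, 7.99, 87.1, 377 and 5.37 CPM. EGR1, an early growth response factor, was highest in replicate 2 (68.1, 422, 348, 184 and 55.8 CPM). Replicates 1 and 5 were the 2 lowest for NR4A1, FOS and FOSB. Replicate 3 also stood apart in low counts and in mitochondrial reads, and whether these move together for 1 reason was not tested.

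Several inflammatory genes were also highest in replicate 3. Their list had 20 members at a mean of 1 CPM or more. Replicate 3 was highest for 12 of them and replicate 1 for 6, beside 34.1 and 13.7% of all genes on the TMM scale. CXCL2, a neutrophil chemokine, had 5.28, 8.8, 384, 12.7 and 3.16 CPM, PTGS2, the inducible cyclooxygenase, had 7.1, 5.23, 137, 10.5 and 4.16 CPM, and IL6 had 0.568, 0.116, 16.4, 1.38 and 0.425 CPM. VCAM1, an adhesion molecule, had 72.4, 38.8, 186, 56.2 and 56.3 CPM. The list sum was 979, 434, 2072, 748 and 642 TPM, and without replicate 3 its range went from 4.78-fold to 2.26-fold. CCL2, the monocyte chemokine, did not follow (39.6, 18, 28, 28.9 and 29.5 CPM), nor did TNF (1.89, 1.05, 2.81, 2.71 and 3.13 CPM). Other genes of the widest 25 that were high in replicate 3 alone were SIK1, a salt-inducible kinase (18.3, 22.3, 626, 20.8 and 8.32 CPM), RASD1 and DEPP1. CRISPLD1, a secreted protein, was low in replicate 3 alone (25.9, 33.5, 1.51, 39.9 and 37.4 CPM), and TMEM225B was high in replicate 4 alone (2.58, 2.53, 2.14, 49.3 and 1.7 CPM).

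**Figure D5:**
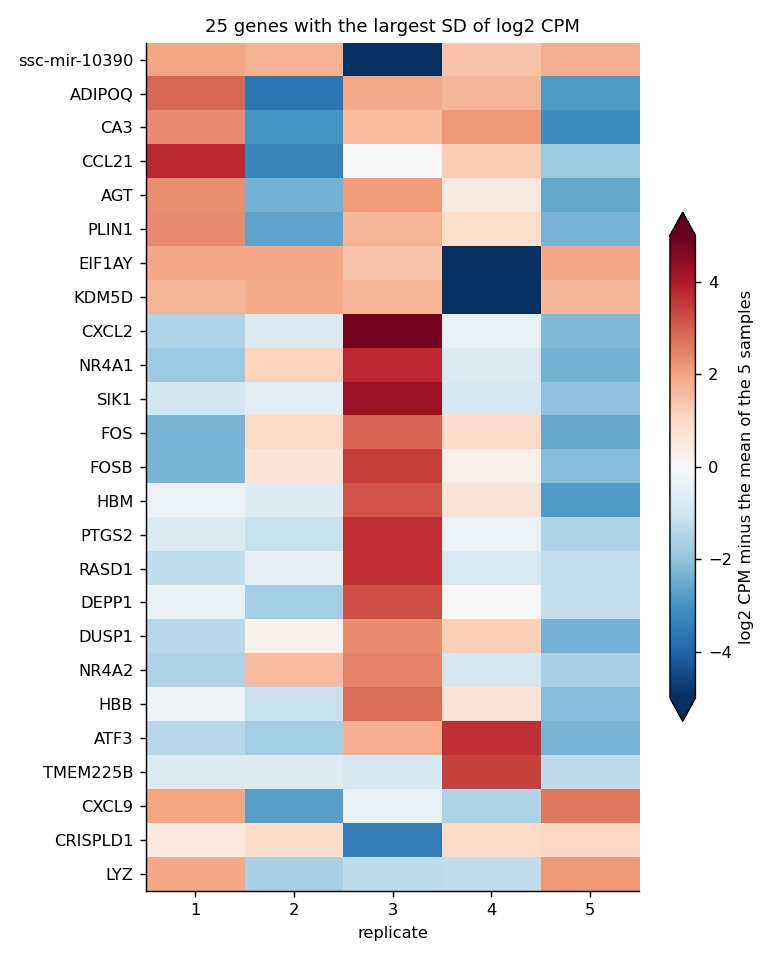
Log2 CPM of the 25 genes with the largest SD, each minus its mean over the 5 samples (colours saturate at 5), in columns of replicates 1 to 5. Of these genes 12 are highest in replicate 3 and 6 in replicate 1, beside 34.1 and 13.7% of all genes. The Y genes EIF1AY and KDM5D are lowest in replicate 4.

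Most mitochondrially encoded genes were highest in replicate 3, but they did not share one order of samples. Their 13 members summed to 51590, 47839, 83052, 39923 and 34398 TPM. Replicate 3 was highest for 11, beside 34.1% of all genes on the TMM scale. COX1, a subunit of cytochrome oxidase, had 3968, 3463, 7302, 3970 and 3797 CPM. Replicate 3 lay far above the other 4 samples, which lay close together. ND5, a subunit of complex I, showed another order (1267, 1136, 1033, 485 and 467 CPM), with replicate 1 highest and replicates 4 and 5 lowest. Ribosomal protein genes took 4.05% of counts and 9.6% of TPM, and which sample is highest depends on scaling. With TMM, 64 of 74 members were highest in replicate 3, beside 34.1% of all genes. With plain totals 37 were, and the share of all genes was not computed on that scale.

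At the other end, PCBP1, an RNA-binding protein, had the smallest SD of log2 CPM (0.01), at 214, 206, 195, 229 and 215 CPM. FH, fumarase of the citric acid cycle, had an SD of 0.02, and SON, a splicing cofactor, had 0.03. The other 12 of the 15 steadiest were KIAA2013, RBBP7, CHST14, GEMIN4, CNN3, IDH3B, KLHDC3, TXNL1, USF1, THAP11, UBE2Z and UBE2Q1. These 15 were picked for their small SD, so other genes are wider by construction. Of common reference genes, GAPDH had an SD of 0.26 (0.04 without replicate 3) and ACTB had 0.26, while YWHAZ had 0.08. The median over genes with a mean of 10 CPM or more was 0.248. CNN3, the calponin of non-muscle cells, had an SD of 0.03, against 0.26 for its muscle relative CNN1.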

How the data were processed

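The authors deposited 1 table of raw counts, whole numbers without normalization. Trim Galore, STAR, DESeq2 and the build Sscrofa11.1 are named in the submitters' processing notes, without tool versions. Which program counted, with which strand setting and annotation, is not given in the sources used here, so reads of overlapping antisense genes and of near-identical copies cannot be assigned with certainty. RNA was extracted with Trizol, captured on poly-T beads and primed with random hexamers, per the labels' protocols. Only the 5 SWNT columns were used.

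CPM used total counts, and TPM the summed exon lengths in the table. SDs used log2 CPM with TMM scaling (edgeR 4.0.16, R 4.3.3) and a prior count of 2. The edgeR form of this step was tested on simulated independent counts, which does not cover counts that come in pairs. Symbols came from the table (17532 genes), a table of identifiers (223) or RefSeq position on Sscrofa11.1 (882). Members and lists were chosen with earlier results of these data known. Named genes are PTPN6, CD47, SIRPA and 7 markers, the 25 highest by CPM and by TPM, leading and most variable members of each list, the 25 most and 15 least variable, genes whose rank shifts most with length, and HOX genes. Others, such as TREM2, STARD4, COL4A1, HSPG2 and receptors, were chosen after their values were seen. No groups were compared and no p-value was computed. Alternatives were other scalings and prior, a median, mitochondrial genes left out, other minimums, a median absolute deviation, sums without the top member, and each sample left out.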

Additional observations from a re-analysis of the deposited data

Results flagged for a closer look

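For each marker list and each named gene, the highest or lowest of the 5 samples was called apart where its gap to the next sample, on the log2 scale, exceeded 0.71 of the whole range, Dixon's 95% criterion. Chance meets it in about 1 group in 20, a rate that does not apply to the genes named for their wide spread or after their values were seen. Of 188 values examined, 27 were called: 14 in replicate 3, 8 in replicate 4 and 5 in replicate 1.

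In replicate 3, 7 genes were apart on the high side. They were the mitochondrial oxidase genes COX1 at 7302 CPM (3463 to 3970 elsewhere) and COX2 at 3767 CPM, the glycolytic enzyme GAPDH at 1021 CPM, the chemokine CXCL2 at 383.6 CPM (3.16 to 12.7 elsewhere), PTGS2 at 137 CPM, the kinase SIK1 at 626 CPM and RASD1 at 49.4 CPM. The other 7 were apart on the low side. TREM2 and STARD4 were at 0 CPM, which is not read as absence because genes of low counts were often at 0 in this sample. The gene ssc-mir-10390 was at 0.272 CPM (127 to 174 elsewhere), and CRISPLD1 was at 1.51 CPM. LUM was at 214 CPM (739.98 to 1001 elsewhere), HMGCS1 of sterol synthesis was at 23.4 CPM, and GEMIN4 was at 29.6 CPM (33.0 to 37.4 elsewhere), a narrow gap in a gene of small spread.

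Replicate 4 was apart on the low side for the Y genes EIF1AY and KDM5D, both at 0 CPM, and for 5 genes of matrix and cytoskeleton. These were COL4A1 at 3188 CPM (5076 to 5646 elsewhere), HSPG2 at 1592 CPM (3503 to 4230 elsewhere), TNC at 484 CPM, the non-muscle myosin MYH9 at 1014 CPM and the smooth muscle actin ACTG2 at 2001 CPM. It was apart on the high side for TMEM225B, at 49.3 CPM against 1.70 to 2.58 elsewhere.

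Replicate 1 was apart on the high side for the macrophage genes CD163 at 79.0 CPM (19.1 to 31.1 elsewhere) and CSF1R at 236 CPM (99.3 to 122 elsewhere), for TOP2A of dividing cells at 24.7 CPM (9.54 to 14.0 elsewhere), for SIRPA at 73.1 CPM (35.8 to 40.6 elsewhere) and for the lymphatic receptor FLT4 at 31.3 CPM (5.37 to 7.70 elsewhere).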

How the results depend on the processing

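No paired analysis was possible because 1 group is described and no groups were compared. Over all results, 184 of the 202 alternatives that kept all samples gave a value within the spread between samples or within 1.5 times. So did 403 of the 420 that left out 1 sample, a count largely fixed in advance. A mean cannot leave that spread when 1 of 5 samples is left out. A highest-to-lowest ratio changes only when its highest or lowest sample is left out. Genes with an SD of log2 CPM of 1 or more numbered 172, and 734 when the minimum was lowered to 1 CPM. The endothelial range of 2.79-fold became 4.27-fold on the mean of log2 values. The adipocyte range of 3.56-fold became 6.33-fold on that measure and 5.50-fold without CFD, its most abundant member, and the B and plasma cell range of 4.45-fold became 2.48-fold without MZB1. The cause of these shifts was not tested.

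With each sample left out in turn, ranges were 1.55 to 2.35-fold (fibroblast, lowest without replicate 3), 1.81 to 2.79-fold (endothelial, without replicate 3), 1.97 to 3.40-fold (macrophage, without replicate 1), 2.07 to 3.24-fold (T and NK cell, without replicate 2) and 6.93 to 23.2-fold (erythroid, without replicate 3). Genes with an SD of 1 or more numbered 75, without replicate 3, to 212. The erythroid range was 13.1-fold without replicate 5. Of 74 ribosomal protein genes, 64 were highest in replicate 3 with TMM, beside 34.1% of all genes. With total counts, an alternative chosen after seeing the data, 37 were, and the share of all genes was not computed. With 5 samples, their number limits the precision of each SD.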

Other observations

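Cell cycle genes were low but present in each artery. The list of 18 summed to 256, 162, 149.6, 191 and 216 TPM, with all 18 members at 1 CPM or more in every sample. Replicate 1 was highest for 12 of them, beside 13.7% of all genes on the TMM scale. MKI67, a nuclear antigen of cycling cells, had 28.3, 9.03, 8.51, 9.75 and 20.5 CPM, and TOP2A, the topoisomerase of dividing cells, had 24.7, 10.4, 9.54, 14 and 12.5 CPM. Replicates 1 and 5 were the 2 highest for MKI67, and replicate 1 stood above the other 4 for TOP2A.

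Small heat shock proteins of muscle were abundant. HSPB6, which binds actin-associated proteins in smooth muscle, had 1130, 1579, 1355, 924 and 1202 CPM, and HSPB1 had 214, 283, 580.2, 208 and 196 CPM, highest in replicate 3. HSP90AA1, the cytosolic chaperone, was even (921, 902, 890.1, 1010 and 1019 CPM).

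Among cartilage-like genes, CHAD, chondroadherin, had 75.4, 50, 155, 22.5 and 21.1 CPM, highest in replicate 3. COL2A1, the collagen of cartilage, had a mean of 0.43 ± 0.487 CPM.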
